A study of Mus musculus with 12 samples.

Results

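Caspases are cysteine proteases that cut their substrates after aspartate, and 7 of them were followed here among the 46731 genes of an expression table of ATDC5 cells. The members were chosen by symbol: *Casp1*, *Casp4* and *Casp12*, which belong to the inflammatory branch, and *Casp2*, *Casp8*, *Casp9* and *Casp6*, which belong to the apoptotic branch. All 7 symbols were found, each on a single row, and 6 of them (all except *Casp1*) passed the filter on low values. ATDC5 is a mouse teratocarcinoma-derived line that can form cartilage in culture and serves as a chondrocyte model. The study placed knockdown of the RNA helicase gene *Ddx5* and inflammatory stimulation side by side to ask what the loss of DDX5 does in osteoarthritis. RNA was measured 6 h into the experiment in 4 groups of 3 libraries.

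The 4 groups were shRNA-NC cells without stimulation, shRNA-*Ddx5* cells without stimulation, shRNA-NC cells given IL-1β and TNF-α together, and shRNA-*Ddx5* cells given the same cytokines. Both cell lines carried an integrated lentiviral cassette under puromycin selection, in which a U6 promoter drives the hairpin. The control line, labelled wildtype, therefore also carried a vector, and whether each line was a clone or a pool of transduced cells was not stated. The paper lists a single hairpin sequence against *Ddx5*. Loss of *Ddx5*, other effects of that hairpin and differences between the lines therefore cannot be told apart. A knockdown difference below is thus a difference between these lines. No passage, day or culture record tied the libraries to one another, so the p-values measure the spread between these libraries. The depth ranged from 14119199 to 19276520 gene-assigned fragments per library.

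Inflammatory caspases are activated in large cytosolic complexes. Caspase-1 is recruited by inflammasomes and matures interleukin-1β and interleukin-18, and caspase-11, the product of mouse *Casp4*, senses bacterial lipopolysaccharide inside the cell. Both can cleave gasdermin D, whose pores cause pyroptosis. Apoptotic initiators are activated elsewhere: caspase-8 at death receptors such as FAS, caspase-9 on the APAF1 apoptosome after cytochrome c release, and caspase-2 on the PIDDosome. They act upstream of the executioners, to which caspase-6 belongs. Caspases are made as inactive zymogens, so a transcript level says nothing of protease activity.

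The hairpin target was checked first. Control cells in medium had 319 ± 22.3 FPKM of *Ddx5* (mean ± SD, n = 3) and knockdown cells 103 ± 13.9, and with cytokines the values were 310 ± 14.9 and 99.5 ± 5.27, where FPKM is the number of fragments scaled for gene length and library depth. The target was thus at 32.3% of control in medium by the ratio of mean FPKM, and it was at 118 FPKM or below in all 6 knockdown libraries against 294 or above in all 6 controls. The cartilage label was only partly borne out. *Sox9*, the master regulator of chondrogenesis, was at 27.5 ± 0.327 FPKM and *Col2a1*, which encodes type II collagen, at 12.4 ± 3.05 in unstimulated shRNA-NC cells, but 5 of 8 cartilage markers were below the filter, with aggrecan (*Acan*) at no more than 4 fragments in any library.

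One feature of the libraries touches several members. In the shRNA-NC groups a single library held the highest *Casp2*, *Casp6*, *Casp8* and *Casp12* of its group, namely replicate 3 in medium, which was also the shallowest library, and replicate 1 with cytokines. Within the shRNA-*Ddx5* group in medium, replicate 3 held the highest *Casp2*, *Casp6*, *Casp8* and *Casp9*. Without shRNA-NC replicate 1 with cytokines, the knockdown under cytokines still gave 2 members higher and 2 lower, as it did in the whole set.

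*Casp1*, *Casp4* and *Casp12* lie next to each other on the plus strand of chromosome 9 (GRCm39 coordinates of the file). *Casp1* spans 5298517 to 5307281, *Casp4* 5308816 to 5336791 and *Casp12* 5345419 to 5373034, with gaps of 1534 and 8627 bases. The 4 apoptotic genes are scattered: *Casp2* on chromosome 6 (42241841 to 42259442), *Casp8* on chromosome 1 (58834398 to 58886662), *Casp9* on chromosome 4 (141520923 to 141543289) and *Casp6* on chromosome 3 (129695064 to 129707761), all on the plus strand. The values count fragments on exons of the whole gene, and the canonical GENCODE vM39 transcripts have 10 exons for *Casp1*, 9 for *Casp4*, 11 for *Casp12*, 11 for *Casp2*, 9 for *Casp8*, 9 for *Casp9* and 7 for *Casp6*. *Casp1* and *Casp4* lie within the span of an antisense non-coding gene, LOC118567662, which had 0 to 5 fragments per library. *Casp6* shares its span with the same-strand non-coding gene Gm40150, at 2 to 23 fragments. Strandedness of the counting was not stated, so reads of overlapping genes cannot be told apart.

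Promoter windows are shown for the pair of inflammatory genes that rose and for *Casp9*, the apoptotic gene that fell in each comparison. Each runs from 250 bases before to 50 after the RefSeq start site; the sequences come from RefSeq (GRCm38.p6) and each was found by exact match at a single place on its GRCm39 chromosome. Capitals mark matches to 4 motifs searched on both strands, chosen after the expression values were known: the NF-κB motif, the STAT-type GAS motif TTCNNNGAA, the interferon regulatory factor motif GAAANNGAAA and the GC box GGGCGG.
Casp4, chr9:5308599-5308898, plus strand: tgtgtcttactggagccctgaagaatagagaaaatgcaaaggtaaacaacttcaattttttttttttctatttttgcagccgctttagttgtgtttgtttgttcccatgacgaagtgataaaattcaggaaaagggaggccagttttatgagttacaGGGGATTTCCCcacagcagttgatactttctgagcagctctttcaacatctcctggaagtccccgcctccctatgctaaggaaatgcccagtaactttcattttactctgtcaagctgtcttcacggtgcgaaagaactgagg
Casp12, chr9:5345226-5345525, plus strand: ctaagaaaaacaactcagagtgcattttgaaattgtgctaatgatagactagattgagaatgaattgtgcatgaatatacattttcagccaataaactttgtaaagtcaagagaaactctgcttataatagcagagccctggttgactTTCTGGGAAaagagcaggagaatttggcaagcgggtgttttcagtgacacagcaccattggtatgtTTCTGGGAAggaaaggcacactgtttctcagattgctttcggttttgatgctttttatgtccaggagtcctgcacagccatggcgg
Casp9, chr4:141520673-141520972, plus strand: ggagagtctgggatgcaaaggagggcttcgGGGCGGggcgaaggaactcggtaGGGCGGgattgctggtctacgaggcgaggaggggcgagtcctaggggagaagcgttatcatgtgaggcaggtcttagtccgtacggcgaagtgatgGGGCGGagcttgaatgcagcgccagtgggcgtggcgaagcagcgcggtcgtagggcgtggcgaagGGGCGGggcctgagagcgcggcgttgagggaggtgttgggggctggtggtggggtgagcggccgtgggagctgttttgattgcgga

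The capitals in the *Casp4* window are an NF-κB match at -93 to -83 from the start site (numbered 0), made of 3 overlapping matches over both strands. NF-κB matches were present in 4.51% of the 32851 promoter windows in the table. *Casp12* held the GAS motif at 2 places, -102 to -94 and -36 to -28, with the same 9 letters at each, and 8.3% of all windows hold at least 1. *Casp9* held 4 GC boxes and no match to the other motifs, while a GC box is in 35.7% of all windows. CpG dinucleotides numbered 5 in the *Casp4* window, 3 in *Casp12* and 28 in *Casp9*, against a median of 7 over all windows. Of the other members, *Casp2* held 2 GC boxes, *Casp6* held 3, and *Casp1* and *Casp8* held none of the 4 motifs in these windows, where the RefSeq start of *Casp8* lies 7263 bases into the deposited gene. These are matches of letters and no binding was measured.

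Differences below are of log2(FPKM + 1), a scale on which the change of weakly expressed genes appears too small, and adjusted p-values come from limma with Benjamini-Hochberg adjustment over the 12368 genes tested, with a threshold of 0.05. In bulk RNA, fewer cells that express a gene and less RNA per cell cannot be told apart.

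**Figure D1:**
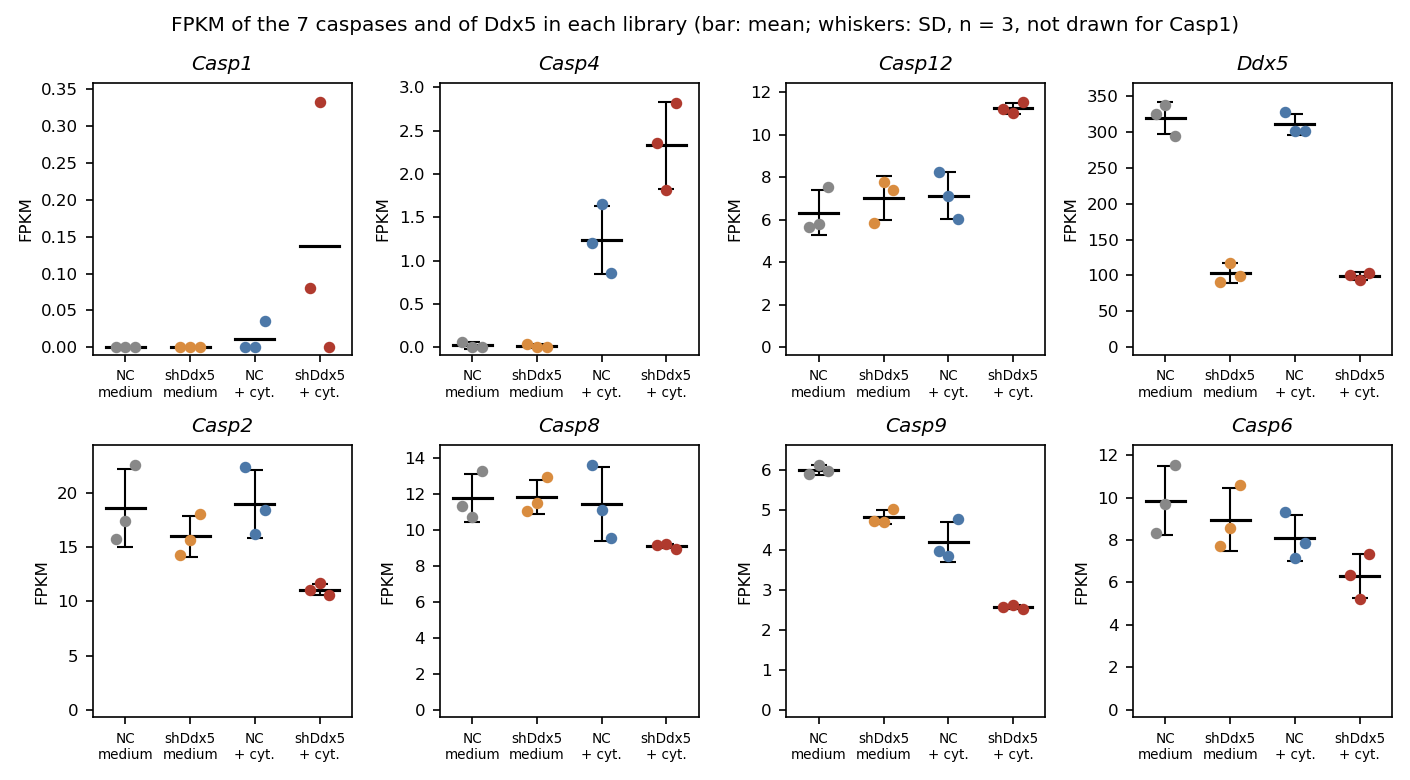
FPKM (vertical axis) of each caspase and of *Ddx5* in the 12 libraries, by group (NC, shRNA-NC; shDdx5, shRNA-*Ddx5*; + cyt., with IL-1β and TNF-α). Points are libraries in the order of their replicate numbers, bars are means and whiskers SDs (n = 3). Whiskers are not drawn for *Casp1*. In shRNA-*Ddx5* cells with cytokines, *Casp4* and *Casp12* lie above and *Casp2*, *Casp8* and *Casp9* below all libraries of the other groups.

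*Casp4* rose from the floor of detection with cytokines in both lines, and reached a higher level in the knockdown. Its FPKM in shRNA-NC cells was 0.0652, 0 and 0 in medium (2, 0 and 0 fragments) and 1.21, 1.65 and 0.858 with cytokines (30, 46 and 24 fragments). In shRNA-*Ddx5* cells it was 0.0408, 0 and 0 in medium (1, 0 and 0 fragments) and 2.36, 1.82 and 2.82 with cytokines (58, 43 and 66 fragments). The unstimulated libraries were at or under the floor of 3 fragments in both lines, and every stimulated library was above it. From summed fragments, the cytokines raised *Casp4* 51.6-fold in shRNA-NC cells (95% counting interval 13.9 to 432) and 182-fold in shRNA-*Ddx5* cells (32.2 to 7233), on 2 and 1 unstimulated fragments. On the log2(FPKM + 1) scale the rises were 1.12 (SE 0.14, adjusted p = 0.000135) and 1.70 (SE 0.14, adjusted p = 3.72e-06). *Casp4* passed the filter on low values through stimulated libraries alone, 2 of shRNA-NC and 3 of shRNA-*Ddx5* cells. In a limma fit without that filter the adjusted p was 0.000477 and 2.01e-05 for the cytokines, and 0.0123 for the knockdown under cytokines. With cytokines, the knockdown libraries lay above the controls without overlap, at 1.88 times the control mean FPKM (log2 difference 0.58, SE 0.14, adjusted p = 0.00604), a call lost with a pseudocount of 0.1 (adjusted p = 0.0638) and kept with voom weights (adjusted p = 0.0197). No fold between the lines is given in medium, where both were at the floor.

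*Casp12* is the mouse caspase tied to the endoplasmic reticulum. It was already present in unstimulated cells, at 5.65, 5.81 and 7.55 FPKM in shRNA-NC and 5.85, 7.80 and 7.40 in shRNA-*Ddx5* libraries. With cytokines it was 8.25, 7.12 and 6.04 in shRNA-NC cells, which overlapped the unstimulated values, and 11.2, 11.0 and 11.5 in shRNA-*Ddx5* cells, which stood above all 9 other libraries. *Casp12* rose with cytokines in shRNA-*Ddx5* cells (log2 difference 0.62, SE 0.13, adjusted p = 0.00481) and was higher in the knockdown than in the control under cytokines (0.60, SE 0.13, adjusted p = 0.00333). In shRNA-NC cells the cytokine difference was 0.15 (95% interval -0.14 to 0.44, adjusted p = 0.405), and in medium the knockdown difference was 0.13 (-0.16 to 0.42, adjusted p = 0.449).

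*Casp1*, the founding inflammasome protease, was near absent. All 6 unstimulated libraries had 0 fragments, a count that allows up to 3, and the shRNA-NC libraries with cytokines had 0, 0 and 1. The shRNA-*Ddx5* libraries with cytokines had 2, 8 and 0 fragments (0.0799, 0.332 and 0 FPKM), so only replicate 2 exceeded the floor. An exact two-sided permutation test of the 3 knockdown against the 3 control libraries with cytokines gave p = 0.4, where 0.1 is the smallest p that 3 against 3 can reach. The ratio of summed fragments was 11.3 (95% counting interval 1.60 to 488), and without replicate 2 it was 3.36 (0.175 to 198).

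*Casp9*, the initiator of the mitochondrial pathway, was the apoptotic caspase with the most ordered values. It stood at 5.90, 6.13 and 5.96 FPKM in unstimulated shRNA-NC cells, 4.71, 4.70 and 5.01 in unstimulated shRNA-*Ddx5* cells, 3.96, 3.85 and 4.76 in shRNA-NC cells with cytokines and 2.56, 2.61 and 2.51 in shRNA-*Ddx5* cells with cytokines. The groups did not overlap in any of the 4 comparisons. It fell with the knockdown by 0.27 in medium (SE 0.08, adjusted p = 0.0168) and by 0.54 with cytokines (SE 0.08, adjusted p = 0.000263), and with cytokines by 0.43 in shRNA-NC (SE 0.08, adjusted p = 0.00173) and by 0.71 in shRNA-*Ddx5* cells (SE 0.08, adjusted p = 5.03e-05). In medium the call was lost after quantile normalization (adjusted p = 0.0596) and without shRNA-NC replicate 2 (adjusted p = 0.0562). The change in mean FPKM of stimulated knockdown cells was -46.7% from the unstimulated knockdown and -38.9% from the stimulated control.

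*Casp2*, which responds to centrosome and DNA damage signals, was the most abundant member in 3 of the 4 groups. In unstimulated cells it was 15.8, 17.4 and 22.6 FPKM for shRNA-NC and 14.2, 15.7 and 18.0 for shRNA-*Ddx5*, and these overlapped. With cytokines it was 22.4, 16.2 and 18.4 for shRNA-NC but 11.0, 11.6 and 10.6 for shRNA-*Ddx5*, the lowest values of the set. The knockdown lowered it under cytokines by 0.72 (SE 0.14, adjusted p = 0.00184), to 0.584 of the control mean. Cytokines lowered it in shRNA-*Ddx5* cells by 0.48 (SE 0.14, adjusted p = 0.0261), a call that was lost in 5 of 12 fits that left out 1 library and in the fit without a filter (adjusted p = 0.0558).

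*Casp8*, the initiator at death receptors, was between 9.56 and 13.6 FPKM in the 9 libraries of the other groups and at 9.15, 9.20 and 8.96 in shRNA-*Ddx5* cells with cytokines. These 3 libraries were below all others, but the differences missed the threshold. They were -0.29 against stimulated shRNA-NC cells (95% interval -0.54 to -0.03, adjusted p = 0.0667) and -0.34 against unstimulated shRNA-*Ddx5* cells (-0.60 to -0.08, adjusted p = 0.0508). Both passed when libraries were scaled to their sum of fragments (adjusted p = 0.0254 and 0.0231). Neither the knockdown in medium (0.01, 95% interval -0.25 to 0.27, adjusted p = 0.961) nor cytokines in shRNA-NC cells (-0.05, -0.31 to 0.21, adjusted p = 0.783) passed.

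*Casp6*, the executioner that cuts lamin A, was 8.32, 9.68 and 11.6 FPKM in unstimulated shRNA-NC cells and 7.71, 8.56 and 10.6 in unstimulated shRNA-*Ddx5* cells. With cytokines it was 9.30, 7.16 and 7.86 in shRNA-NC and 6.35, 5.24 and 7.32 in shRNA-*Ddx5* cells. It fell with cytokines in shRNA-*Ddx5* cells by 0.45 (SE 0.15, adjusted p = 0.0479). The call lay at the threshold: it was lost in 7 of 12 fits that left out 1 library, and with voom weights the adjusted p was 0.0548. The other 3 comparisons of *Casp6* had overlapping groups, with differences of -0.12 (95% interval -0.45 to 0.21, adjusted p = 0.53), -0.32 (-0.65 to 0.01, adjusted p = 0.104) and -0.25 (-0.58 to 0.08, adjusted p = 0.227).

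**Figure D2:**
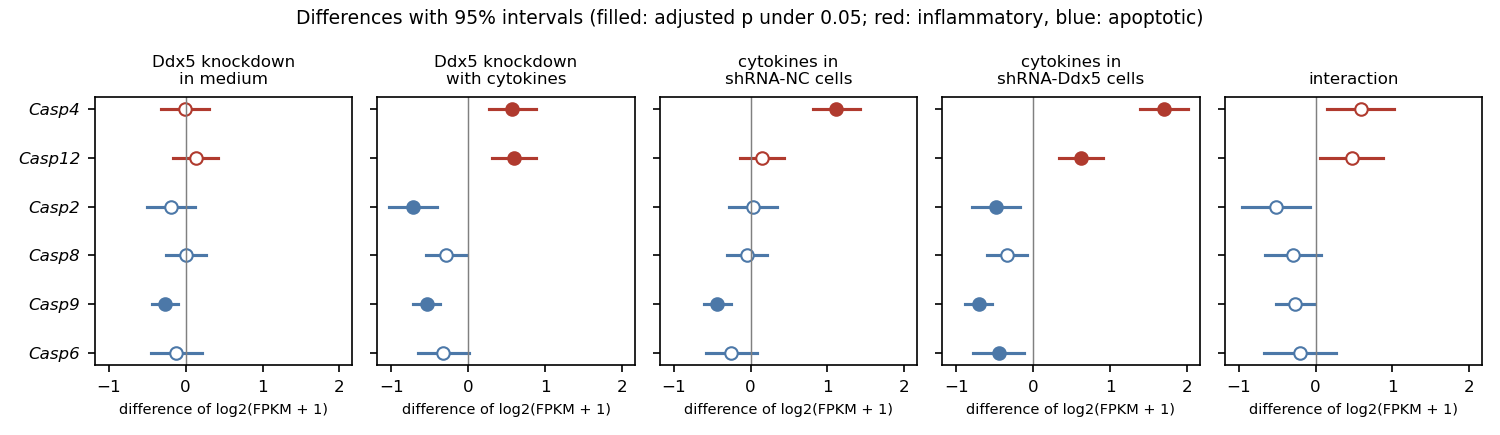
Differences of log2(FPKM + 1) with 95% intervals (horizontal axis) for the 6 caspases tested (vertical axis), by comparison. Filled points have an adjusted p under 0.05; red marks inflammatory and blue apoptotic caspases. Filled red points lie right of 0 and filled blue points left of 0 in every panel that has them, and the interaction panel holds open points only.

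Counted over the 6 members tested, the knockdown in medium called 1 lower and 0 higher by limma, also 0 higher at an unadjusted p under 0.05 and 0 with voom weights, where 47% of all genes tested were called (25.3% higher, 21.7% lower). Under cytokines it called 2 higher and 2 lower, against 45.6% of all genes (23.5% higher, 22.1% lower). Cytokines called 1 higher and 1 lower in shRNA-NC cells against 33.8% of all genes (18.6% higher, 15.2% lower), and 2 higher and 3 lower in shRNA-*Ddx5* cells against 27% (13.5% in each direction). Groups without overlap were more common in the background than calls. The knockdown in medium separated 1 member downward, against 24.8% of all genes (53.5% in either direction), and under cytokines 2 upward and 3 downward, against 31.7% and 29.9% (61.6% in either direction). Cytokines separated 1 in each direction in shRNA-NC cells, against 23.7% upward and 22% downward (45.7% in all), and 2 upward and 4 downward in shRNA-*Ddx5* cells, against 23.3% and 24% (47.3% in all). With voom weights the calls for cytokines in shRNA-*Ddx5* cells were 2 higher and 2 lower. *Casp4*, one of the members called higher, reached 1 FPKM in 2 shRNA-NC and 3 shRNA-*Ddx5* libraries with cytokines and in none in medium, so nothing is read from the counts that include it. The median difference of the 4 apoptotic caspases was -0.16 and -0.43 for the knockdown without and with cytokines, and -0.15 and -0.47 for cytokines in the control and in the knockdown line, beside medians of all genes of 0.03, 0.01, 0.02 and 0.00014. The comparisons share libraries in pairs, so these counts are not separate evidence.

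Whether the knockdown effect itself depended on the cytokines was tested by the interaction, which called 8.21% of all genes (3.46% higher, 4.75% lower). None of the 6 members passed it by limma, and none with voom weights, while 4 had an unadjusted p under 0.05 (2 higher, 2 lower). The interaction was 0.59 for *Casp4* (SE 0.20, adjusted p = 0.0978), 0.47 for *Casp12* (adjusted p = 0.152), -0.52 for *Casp2* (adjusted p = 0.145) and -0.27 for *Casp9* (adjusted p = 0.174). Those of *Casp8* and *Casp6* were -0.30 and -0.20 (adjusted p = 0.314 and 0.622). *Casp4* was at the floor in medium in both lines, so its knockdown difference there (-0.01) was held near 0 on this scale. Its interaction thus repeats the difference under cytokines, and nothing is read from it or from the count of 2 higher, which includes it. A larger effect of the knockdown under cytokines was therefore not established for any single member.

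Summed over the branch, the inflammatory caspases held 5.71, 5.81 and 7.55 FPKM in unstimulated shRNA-NC libraries and 5.89, 7.80 and 7.40 in unstimulated shRNA-*Ddx5* libraries. They held 9.46, 8.77 and 6.93 in shRNA-NC and 13.6, 13.2 and 14.4 in shRNA-*Ddx5* libraries with cytokines. The apoptotic sums were 46.2 ± 6.34 (SD, n = 3) and 41.6 ± 4.51 FPKM in medium, and 42.7 ± 5.77 and 29.1 ± 0.340 with cytokines, in the order shRNA-NC and shRNA-*Ddx5*. The inflammatory share of the summed FPKM was 12.1% ± 0.365 and 14.5% ± 1.48 in medium, and 16.4% ± 2.03 and 32.1% ± 0.692 with cytokines. The last group was apart from the rest in all 3 quantities. *Casp12* was the largest part of the inflammatory sum in each group, with *Casp4* second and *Casp1* at or near 0.

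**Figure D3:**
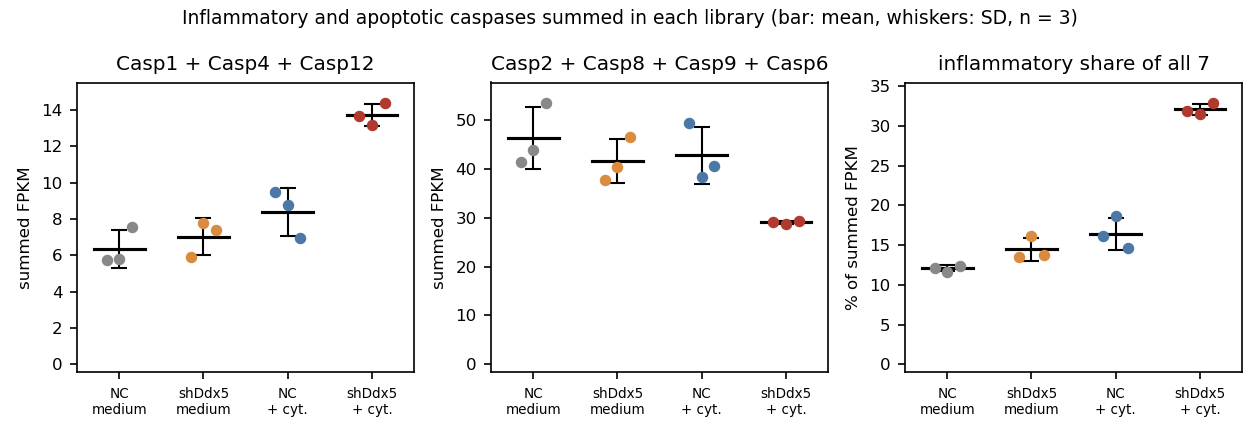
Summed FPKM of the inflammatory caspases (left) and of the apoptotic caspases (middle), and the inflammatory share of both sums in percent (right), in the 12 libraries by group. Points are libraries, bars are means and whiskers SDs (n = 3). The 3 shRNA-*Ddx5* libraries with cytokines have shares of 31.5% to 32.8%, against 11.7% to 18.6% in the other 9.

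The order of mean levels was the same in 3 of the 4 groups and differed in stimulated shRNA-*Ddx5* cells, FPKM being per length and so comparable between genes. In unstimulated shRNA-NC cells it ran *Casp2* (18.6), *Casp8* (11.8), *Casp6* (9.85), *Casp12* (6.34), *Casp9* (5.99), *Casp4* and *Casp1*, where *Casp8* and *Casp6*, and *Casp12* and *Casp9*, overlapped. In stimulated shRNA-*Ddx5* cells *Casp12* (11.3) and *Casp2* (11.1) overlapped at the top, followed by *Casp8* (9.10) and *Casp6* (6.31), and *Casp9* (2.56) overlapped *Casp4* (2.33).

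Among the 6 members, correlations of log2 values over the 12 libraries were positive within each branch and negative between branches. *Casp4* and *Casp12* correlated at 0.757, *Casp2* and *Casp8* at 0.840, and *Casp4* and *Casp9* at -0.912. These describe 12 libraries in 4 groups and share the group differences given above.

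The genes most like each member over the same 12 libraries were named by Pearson's r. For *Casp4* these were *Ccl20* (0.986), a chemokine, *Nos2* (0.986), the inducible nitric oxide synthase, and *Parp14* (0.985). *Nos2* went from 0.00516 and 0.140 FPKM in medium to 63.2 ± 30.0 and 396 ± 11.1 with cytokines (SD, n = 3, shRNA-NC first). For *Casp12* they were *Pla2g4a* (0.964), the cytosolic phospholipase A2, *Angpt1* (0.949) and *Slc16a10* (0.935). *Pla2g4a* was at 8.72, 9.99, 10.2 and 18.0 FPKM in the 4 groups, in the order shRNA-NC and shRNA-*Ddx5* in medium, then with cytokines. *Casp9* was most like *Ski* (0.986), a repressor of TGF-β signalling, *Capn2* (0.979), a calpain protease, and *Ston2* (0.978), and *Ski* was at 19.9, 15.5, 13.4 and 6.35 FPKM in the same order. *Casp2* was nearest to *Mapk1ip1l* (0.984), *Bri3* (0.980) and *Gapvd1* (0.978), *Casp8* to *Poli* (0.945), *Jkamp* (0.938) and *Arl8b* (0.923), and *Casp6* to *Shld2* (0.949), *Ide* (0.939) and *Ube4a* (0.934).

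*Malt1* and *Casp14*, a paracaspase gene and a caspase outside both branches, were read beside the members. *Malt1*, which relays antigen receptor signals to NF-κB, was 1.94, 2.13 and 2.13 FPKM in unstimulated shRNA-NC cells, 0.730, 1.16 and 1.11 in unstimulated shRNA-*Ddx5* cells, 1.84, 2.19 and 1.87 in shRNA-NC cells with cytokines and 1.76, 1.34 and 2.34 in shRNA-*Ddx5* cells with cytokines. It fell with the knockdown in medium (-0.62, adjusted p = 0.00281) and rose with cytokines in shRNA-*Ddx5* cells (0.48, adjusted p = 0.0199). The 3 unstimulated shRNA-*Ddx5* libraries lay below all 9 others. *Casp14*, the caspase of cornified epidermis, was below the filter and had at most 7 fragments. It had 0 in every shRNA-NC library, 5, 7 and 6 in unstimulated shRNA-*Ddx5* libraries and 0, 1 and 1 in those with cytokines.

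**Figure D4:**
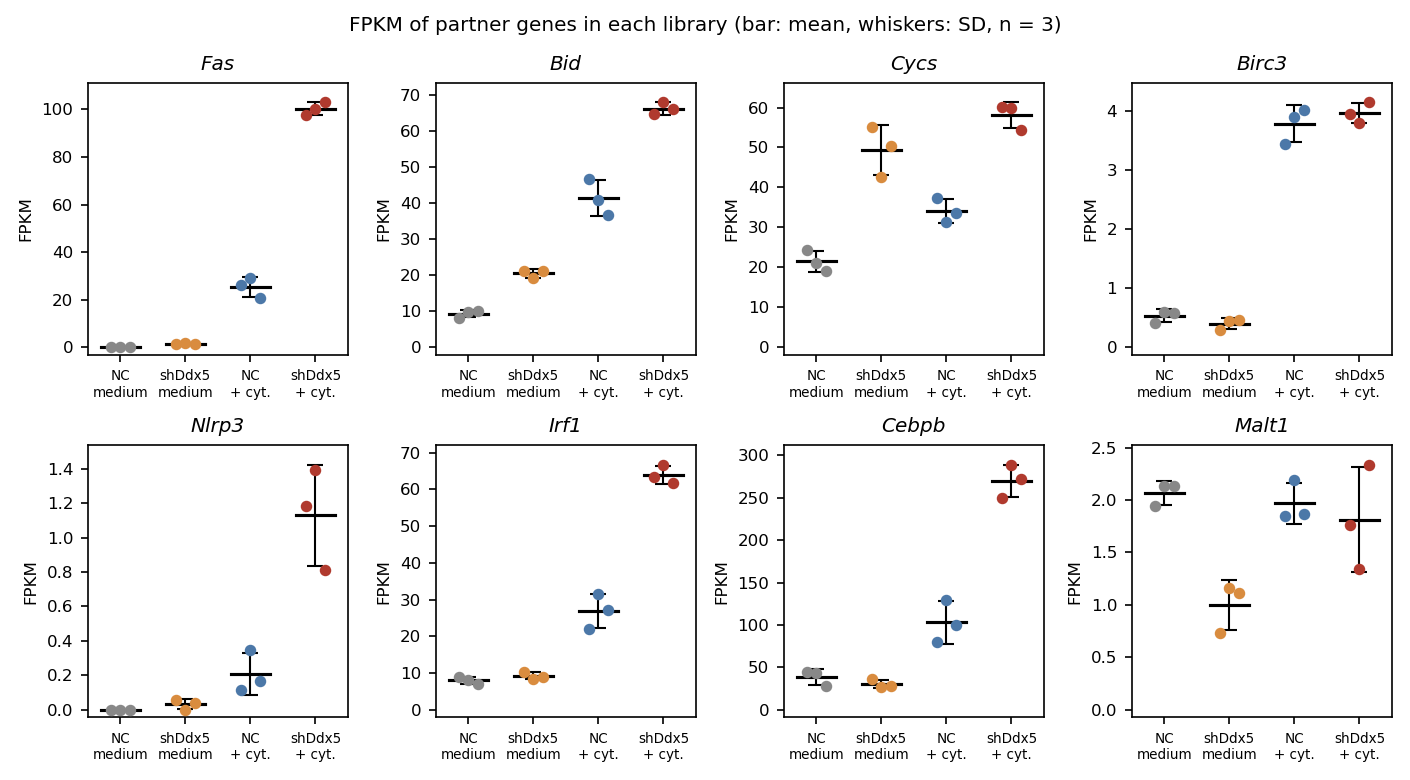
FPKM (vertical axis) of 8 genes around the caspases in the 12 libraries, by group, with points for libraries, bars for means and whiskers for SDs (n = 3). *Fas*, *Nlrp3*, *Irf1* and *Cebpb* are highest in shRNA-*Ddx5* cells with cytokines, while *Cycs* is already raised by the knockdown in medium and *Malt1* is lowest there.

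Inflammasome sensors and adaptors were mostly below the filter. Of 17 genes only *Nek7* and *Card6* were tested, and 7 of the other 15 never exceeded 3 fragments. *Nek7*, the kinase that licenses NLRP3, fell with cytokines by 0.63 in shRNA-NC (adjusted p = 0.00215) and by 0.78 in shRNA-*Ddx5* cells (adjusted p = 0.000546), while *Card6* passed in no comparison. The list's median difference over those genes was 0.08 and -0.09 for the knockdown in medium and with cytokines, and -0.25 and -0.42 for cytokines in the control and knockdown lines. A further 3 genes, below the filter, are named because of their values. *Nlrp3*, the sensor best known in joints, had 0 fragments in all unstimulated shRNA-NC libraries and 4, 0 and 3 in unstimulated shRNA-*Ddx5* libraries. With cytokines it had 8, 27 and 13 in shRNA-NC cells and 81, 92 and 53 in shRNA-*Ddx5* cells (1.18, 1.39 and 0.811 FPKM). *Pycard*, which encodes the adaptor ASC, had at most 11 fragments, with overlapping groups in each comparison. *Mefv* had at most 1 fragment in unstimulated libraries. With cytokines it had 0, 7 and 0 in shRNA-NC and 19, 11 and 14 in shRNA-*Ddx5* cells.

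Pyroptosis substrates and executors were also sparse, with 3 of 9 genes tested. *Gsdmd* and *Il1b*, which encode substrates of caspase-1, had at most 1 fragment each. *Gsdme*, a gasdermin cut by caspases, fell with the knockdown by 0.45 in medium (adjusted p = 0.00461) and by 0.31 with cytokines (adjusted p = 0.0337). Only 1 knockdown library of *Gsdme* reached 1 FPKM, and without the filter the adjusted p was 0.0113 and 0.0664, so the call under cytokines was lost. *Ninj1*, which ruptures the plasma membrane of dying cells, rose with cytokines by 0.77 (adjusted p = 0.00814) and 1.07 (adjusted p = 0.0013) and was higher in the knockdown under cytokines (0.52, adjusted p = 0.0388). *Il18*, whose product is also matured by caspase-1, was at 1.60 to 2.29 FPKM by group mean and passed in none. The medians over the tested genes were -0.16 and 0.33 for the knockdown and -0.03 and 0.20 for cytokines. *Il1a*, which was below the filter and is named for its values, had at most 1 fragment in unstimulated libraries, 4, 9 and 0 in shRNA-NC and 29, 40 and 38 in shRNA-*Ddx5* cells with cytokines.

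The death receptor list held 10 genes, for receptors, ligands, adaptors and regulators around caspase-8 and for the necroptosis proteins RIPK3 and MLKL. Of these 7 were tested. With cytokines 4 rose in each line, *Mlkl* among them, and none fell. The medians were 0.34 in both lines, where 18.6% and 13.5% of all genes were called higher. The knockdown called 2 higher and 1 lower in medium, and 2 of each under cytokines, at medians of 0.13 and -0.03, and these counts were near the background of 25.3% higher and 21.7% lower in medium and 23.5% and 22.1% under cytokines. *Fas*, the receptor itself, was 0.198, 0.261 and 0.353 FPKM in unstimulated shRNA-NC cells, 1.29, 1.83 and 1.31 in unstimulated shRNA-*Ddx5* cells, 26.4, 29.0 and 20.9 in shRNA-NC cells with cytokines and 97.8, 100.1 and 103 with both. It rose in each comparison, by 0.96 and 1.95 with the knockdown (adjusted p = 8.59e-05 and 8.27e-07) and by 4.37 and 5.36 with cytokines (adjusted p = 5.07e-10 and 7.49e-11), and its interaction of 0.99 passed (adjusted p = 0.005). No unstimulated shRNA-NC library of *Fas* reached 1 FPKM. In medium mean FPKM was 0.271 in shRNA-NC and 1.48 in shRNA-*Ddx5* cells, and with cytokines 25.4 and 100. Adding 1 before the log shrinks the difference in medium most, so no larger effect of the knockdown under cytokines is read from the interaction. Without the filter the adjusted p was 0.000343 and 6.37e-06 for the knockdown. It was 1.84e-08 and 3.84e-09 for cytokines and 0.012 for the interaction. *Fadd*, the adaptor that binds procaspase-8, rose in each of the 4 comparisons by 0.34 to 0.64. *Mlkl*, the necroptosis effector, rose with cytokines by 0.93 and 0.77 (adjusted p = 2.95e-05 and 0.000105), while *Ripk3*, its activating kinase, never exceeded 3 fragments. *Ripk1* fell with the knockdown by 0.45 and 0.44 (adjusted p = 0.00236 and 0.00283), and *Tnfrsf10b*, the TRAIL receptor, rose with cytokines in shRNA-NC cells (0.37, adjusted p = 0.0235) and was lower in the knockdown under cytokines (-0.50, adjusted p = 0.00363). *Cflar*, which encodes the caspase-8 inhibitor c-FLIP, rose with cytokines in shRNA-*Ddx5* cells (0.34, adjusted p = 0.0441). The ligand gene *Fasl* had at most 1 fragment.

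The apoptosome and mitochondrial genes around *Casp9* were called higher in every comparison in which they were called. All 6 were tested, 4 rose with the knockdown in medium and 4 under cytokines with none falling (medians 0.48 and 0.39), and cytokines raised 2 in shRNA-NC and 1 in shRNA-*Ddx5* cells (medians 0.35 and 0.17). The shares of all genes called higher were 25.3% and 23.5% for the knockdown and 18.6% and 13.5% for cytokines. The counts for cytokines were near these shares. *Cycs*, which encodes cytochrome c, was 24.4, 21.1 and 19.2 FPKM in unstimulated shRNA-NC and 55.1, 42.7 and 50.3 in unstimulated shRNA-*Ddx5* cells, a rise of 1.16 (adjusted p = 1.68e-05), and it was 0.75 higher in the knockdown under cytokines (adjusted p = 0.000298). *Endog*, a mitochondrial nuclease, rose with the knockdown by 0.69 and 0.50 (adjusted p = 0.00349 and 0.0199), *Htra2*, an IAP antagonist, by 0.66 and 0.79 (adjusted p = 0.0312 and 0.0137), and *Diablo*, which encodes the IAP antagonist SMAC, by 0.31 in medium (adjusted p = 0.0202). *Aifm1*, which encodes the apoptosis-inducing factor, was 0.28 higher in the knockdown under cytokines (adjusted p = 0.017). With cytokines *Cycs* (0.64, adjusted p = 0.00135) and *Diablo* (0.34, adjusted p = 0.0175) rose in shRNA-NC cells and *Htra2* (0.72, adjusted p = 0.0344) in shRNA-*Ddx5* cells. *Apaf1*, the scaffold on which caspase-9 is activated, passed in no comparison, at 8.79 to 10.7 FPKM by group mean. Of the PIDDosome that activates caspase-2, *Pidd1* was tested and passed in none, and *Cradd* was below the filter.

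Of the 6 inhibitor of apoptosis (IAP) genes 5 were tested. The knockdown called 1 higher and 3 lower in medium and 1 of each under cytokines, and cytokines called 1 of each in shRNA-NC cells and 2 higher in shRNA-*Ddx5* cells. The background was 25.3% higher and 21.7% lower for the knockdown in medium, and 23.5% and 22.1% under cytokines, where the counts were near it. For cytokines it was 18.6% and 15.2% in shRNA-NC cells and 13.5% in each direction in shRNA-*Ddx5* cells. *Birc3*, an NF-κB target, rose with cytokines by 1.65 in shRNA-NC and 1.83 in shRNA-*Ddx5* cells (adjusted p = 2.23e-07 and 6.75e-08). It passed the filter through stimulated libraries alone, so nothing is read from the cytokine counts, which include it. Without the filter the adjusted p was 3.39e-06 and 1.16e-06. *Xiap*, whose product blocks caspase-9 and the executioners, fell with the knockdown in medium (-0.55, adjusted p = 0.0198), as did *Birc2* (-0.34, adjusted p = 0.0296) and *Birc6* (-0.72, adjusted p = 0.00258), and *Birc6* was also lower under cytokines (-0.66, adjusted p = 0.00437). *Birc5*, a mitotic member of the family, rose with the knockdown by 0.44 and 0.73 (adjusted p = 0.0101 and 0.000443) and fell with cytokines in shRNA-NC cells (-0.44, adjusted p = 0.0144). *Birc2* rose with cytokines in shRNA-*Ddx5* cells (0.59, adjusted p = 0.00244). Medians were -0.34 and 0.06 for the knockdown and -0.38 and -0.02 for cytokines.

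All 12 genes for apoptotic caspase substrates were tested, with medians of 0.04 and -0.03 for the knockdown and -0.07 and 0.01 for cytokines. The knockdown called 3 higher and 2 lower in medium and 2 higher and 4 lower under cytokines, and cytokines called 2 higher and 1 lower in shRNA-NC and 1 of each in shRNA-*Ddx5* cells. Of all genes the knockdown called 25.3% higher and 21.7% lower in medium, so that the counts there were near the background, and 23.5% and 22.1% under cytokines, and cytokines called 18.6% and 15.2% in shRNA-NC cells and 13.5% in each direction in shRNA-*Ddx5* cells. *Bid*, which links caspase-8 to mitochondria, stood at 8.16, 9.76 and 10.1 FPKM in unstimulated shRNA-NC cells and at 64.6, 68.0 and 65.9 with knockdown and cytokines. It rose in all 4 comparisons, by 1.06 and 0.67 with the knockdown (adjusted p = 1.22e-05 and 0.000275) and by 2.04 and 1.64 with cytokines (adjusted p = 6.8e-08 and 2.91e-07). *Panx1*, a channel opened by executioner caspases, changed in opposite directions, with 0.45 for the knockdown in medium and -0.69 under cytokines (adjusted p = 0.0117 and 0.00097), and its interaction was -1.14 (adjusted p = 0.00272). With cytokines it was called at 0.78 in shRNA-NC and -0.37 in shRNA-*Ddx5* cells (adjusted p = 0.000734 and 0.0482). *Gas2*, a cytoskeletal substrate, was lower in the knockdown under cytokines (-0.40, adjusted p = 0.0324), a call lost without the filter (adjusted p = 0.0696). No stimulated shRNA-*Ddx5* library of *Gas2* reached 1 FPKM, so nothing is read from the lower count under cytokines, which includes it. *Rock1*, the kinase behind membrane blebbing, was lower in the knockdown by 1.06 and 0.75 (-1.06 and -0.75, adjusted p = 0.00627 and 0.0355), and *Sptan1*, which encodes αII-spectrin, by 0.70 and 0.30 (-0.70 and -0.30, adjusted p = 3.97e-05 and 0.00861). *Sptan1* also fell with cytokines in shRNA-NC cells (-0.39, adjusted p = 0.00285), and its interaction was 0.40 (adjusted p = 0.0497). *Parp1*, a classic caspase target, rose with the knockdown by 0.42 and 0.30 (adjusted p = 0.00394 and 0.0251).

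Transcription factors known to act on inflammatory caspase genes rose with cytokines, as *Casp4* did. Of 6 genes 5 were tested, and all 5 rose with cytokines in each line, at medians of 1.35 and 1.83, where 18.6% (shRNA-NC) and 13.5% (shRNA-*Ddx5*) of all genes were called higher. Under cytokines 3 were higher in the knockdown (median 0.51; 23.5% of all genes), against 0 in medium by limma, where none had an unadjusted p under 0.05 either (median -0.125). *Irf1*, the interferon regulatory factor, was 22.1, 31.5 and 27.2 FPKM in shRNA-NC and 63.3, 66.7 and 61.8 in shRNA-*Ddx5* cells with cytokines (1.23, adjusted p = 2.07e-05), and *Cebpb* was 103 ± 24.9 and 270 ± 19.3 (SD, n = 3; 1.40, adjusted p = 0.000184). With cytokines *Irf1* rose by 1.62 and 2.67 (adjusted p = 3.43e-06 and 3.95e-08) and *Cebpb* by 1.39 and 3.10 (adjusted p = 0.000323 and 4.12e-07), shRNA-NC first. Both passed the interaction, at 1.05 for *Irf1* and 1.72 for *Cebpb* (adjusted p = 0.00491 and 0.0038). *Nfkb1* was 0.51 higher in the knockdown under cytokines (adjusted p = 0.00173), whereas *Rela* rose with cytokines (1.02 and 0.90, adjusted p = 0.000229 and 0.000558) but was not called between the lines. *Irf8*, a myeloid factor, had 0 fragments in all 12 libraries.

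Since *Casp1*, *Casp4* and *Nlrp3* are best known from macrophages, markers of that cell type were read beside them. The defining markers *Ptprc* and *Tyrobp* had 0 fragments in every library, and *Adgre1* and *Itgam* at most 1. The others of the list moved unequally between the lines. *Lyz2*, which encodes a lysozyme, had means of 0.0518 and 0.0504 FPKM in shRNA-NC cells in medium and with cytokines, and of 0.934 and 0.569 in shRNA-*Ddx5* cells, with at most 23 fragments in a library. *Csf1r*, the macrophage growth factor receptor, had means of 0.0887 and 0.0327 FPKM in shRNA-NC and of 0.381 and 0.267 in shRNA-*Ddx5* cells, with at most 31 fragments. For each of these genes, which were below the filter and are named for their values, all 6 shRNA-*Ddx5* libraries lay above all 6 shRNA-NC libraries, and their part in the results was not tested. *Fcer1g* and *Aif1* had at most 5 fragments in a library, with overlapping lines. Of 10 markers 2 were tested, *Cd68* and *Cd14*. *Cd68* had means of 1.42 and 1.76 FPKM in shRNA-NC cells in medium and with cytokines and of 1.10 and 1.40 in shRNA-*Ddx5* cells, with overlapping groups, and passed in no comparison. The summed FPKM of the 10 was 5.30 to 5.89 and 6.33 to 7.72 in unstimulated shRNA-NC and shRNA-*Ddx5* libraries, and 8.28 to 10.7 and 11.9 to 12.5 with cytokines, and the most abundant gene was *Cd14*, the lipopolysaccharide co-receptor, with a mean of 6.21. *Cd14* rose with cytokines by 0.74 and 1.00 (adjusted p = 0.000758 and 7.81e-05) and was higher in the knockdown under cytokines (0.37, adjusted p = 0.0261). None of 5 endothelial and 5 epithelial markers was tested, and none exceeded 7 fragments in a library. *Cdh1*, which encodes E-cadherin, had 0 fragments in all 6 shRNA-NC libraries and 1 to 6 in the 6 shRNA-*Ddx5* libraries, *Krt5* had 0 in shRNA-NC and 1 to 6 in shRNA-*Ddx5* cells in medium, and *Pecam1* had 3 to 7 in shRNA-NC and 1 to 2 in shRNA-*Ddx5* cells with cytokines. Of the 3 cartilage markers tested, *Sox9* differed with cytokines by -1.55 and -1.97 (adjusted p = 1.82e-07 and 1.98e-08) and with the knockdown under cytokines by -0.61 (adjusted p = 0.000174). *Col2a1* differed with cytokines in shRNA-NC cells by -0.92 (adjusted p = 0.0111) and with the knockdown by -2.80 and -1.98 (adjusted p = 5.92e-06 and 5.5e-05). *Sox5*, a partner of *Sox9*, differed with cytokines by -0.72 and -0.46 (adjusted p = 0.000113 and 0.00233) and was not called between the lines (-0.17 and 0.08, adjusted p = 0.131 and 0.479). *Col2a1* passed the filter through shRNA-NC libraries alone and *Sox5* through unstimulated ones alone; without the filter the adjusted p was 4.86e-05 and 0.000355 for *Col2a1* with the knockdown, 0.0344 with cytokines in shRNA-NC cells, and 0.000351 and 0.00453 for *Sox5*. Below the filter, *Sox6* and *Hapln1* were higher in the knockdown without overlap in both conditions. *Sox6* had means of 0.171 and 0.914 FPKM in medium and of 0.124 and 0.333 with cytokines, control first, and *Hapln1* had 0 fragments in every control library and at most 12 in a knockdown library.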

How the data were processed

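Total RNA of the 12 libraries was poly-A selected and sequenced. The authors counted fragments on genes and deposited FPKM, the only deposited unit. Per the labels, HISAT2 2.0.5, featureCounts 1.5.0-p3, DESeq2 1.20.0 and GATK 3.7 were used, with mm10 as the build, but the coordinates in the file follow GRCm39. FPKM times gene length gave whole multiples of 1 step in each library (100% of values within 0.01 of a whole number), taken as fragments; the denominators were 0.957 to 1.08 times the sums of fragments. The file says nothing of strand.

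Values were tested as log2(FPKM + 1) with limma 3.58.1 in R 4.3.3 (4 group means, eBayes with trend, no covariate) on the 12368 genes that reached 1 FPKM in 3 or more libraries, with Benjamini-Hochberg adjustment. The authors tested counts with DESeq2; voom on the recovered fragments was an alternative here. On simulated data with 200 changed genes the script was tested. *Casp1*, below the filter, was tested by exact permutation with scipy 1.17.1 and, without the filter, by limma (adjusted p of 0.219 to 1). Counting intervals and the floor of 3 fragments cover counting error only.

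The members and the gene lists were chosen with earlier results of these data known. Genes named were the 7 members, *Ddx5*, at most 4 genes per list and comparison with the largest change past the threshold, and the 3 genes most correlated with each member, with exceptions stated. Some genes of the lists are not reported here. Depth was 14119199 to 19276520 fragments. Python 3.11.15 and matplotlib 3.10.9 drew the figures.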

Additional observations from a re-analysis of the deposited data

How the results depend on the processing

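Directions of the members changed only for values near 0. Scaling to the sum of fragments turned *Casp8* in the knockdown in medium to -0.083 and *Casp2* with cytokines in shRNA-NC cells to -0.046, and quantile normalization turned the latter to -0.063. Leaving out 1 library gave -0.030 to 0.019 for *Casp4* and -0.051 to 0.090 for *Casp8* in the knockdown in medium, and -0.084 to 0.18 for *Casp2* and -0.17 to 0.064 for *Casp8* with cytokines in shRNA-NC cells. Quantile normalization left 0 members lower in the knockdown in medium. A pseudocount of 0.1 left 1 member higher in the knockdown under cytokines (*Casp12*; *Casp4* was lost, at 0.88 with an adjusted p of 0.0638 by limma), and no filter left 1 member lower with cytokines in shRNA-*Ddx5* cells (*Casp9*). The apoptotic sum of shRNA-*Ddx5* cells with cytokines was 28.2 FPKM when scaled to fragments. The cause was not tested.

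With 1 library left out, members called were 0 to 1 lower for the knockdown in medium (0 without shRNA-NC replicate 2 in medium), 2 higher and 2 to 3 lower for the knockdown under cytokines, 1 of each for cytokines in shRNA-NC cells, 2 higher and 1 to 4 lower in shRNA-*Ddx5* cells, and 0 to 1 in each direction for the interaction. *Casp2* passed the interaction without shRNA-NC replicate 3 in medium (adjusted p = 0.0447) and *Casp4* without shRNA-NC replicate 2 with cytokines (0.037). *Casp4* was at the floor in medium in both lines, so nothing is read from its pass. *Casp2* with cytokines in shRNA-*Ddx5* cells was lost without any of that line's libraries but replicate 1 in medium (adjusted p = 0.0544 to 0.109). *Casp6* was lost there without shRNA-*Ddx5* replicate 2 or 3 in medium or 1 or 2 with cytokines, or shRNA-NC replicate 2 in medium or 2 or 3 with cytokines (0.0528 to 0.186), without trend (0.0501) and in the 6 libraries of the contrast (0.0544). *Casp8* passed there without shRNA-NC replicate 3 in medium or 1 or 3 with cytokines (0.0185 to 0.037), under quantile normalization (0.0418) and in those 6 libraries (0.0153), and in the knockdown under cytokines without shRNA-NC replicate 3 with cytokines (0.0195).

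Over all genes, 1016 passed the interaction (428 higher, 588 lower), 759 with a pseudocount of 0.1 and 559 to 1123 with 1 library left out: 559, 610 and 632 without shRNA-*Ddx5* replicate 3, 1 and 2 with cytokines, 600 without its replicate 3 in medium and 628 without shRNA-NC replicate 2 in medium. The split moved with scaling: the knockdown in medium had 3131 higher and 2686 lower, but 2480 and 3353 when scaled to fragments, the knockdown under cytokines had 2906 and 2739, but 2489 and 3126 when scaled so and 2616 and 2922 under quantile normalization, and cytokines in shRNA-NC cells had 2303 and 1878, but 1850 and 2529 when scaled so and 1815 and 2368 under quantile normalization. Cytokines in shRNA-*Ddx5* cells had 1671 and 1673, but 1398 and 2183 under quantile normalization. The same-numbered libraries were not shown to be paired: correlations of their deviations were 0.448, 0.0425 and 0.313 for the knockdown in medium. Libraries of different numbers gave -0.378 to 0.19 there. The same-numbered values were -0.0201, 0.121 and -0.0855 for the knockdown under cytokines. They were -0.368, 0.123 and -0.29 for cytokines in shRNA-NC cells, and -0.013, -0.292 and 0.043 in shRNA-*Ddx5* cells. With the replicate block the counts were 5452, 5232, 3769, 2902 and 687 genes in place of 5817, 5645, 4181, 3344 and 1016, and no call of a member changed.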
